A study of Homo sapiens with 2 samples.

Results

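The plakin genes PLEC, EPPK1, EVPL, PPL, DSP, DST and MACF1 were examined for peaks of H4R3me2a, the asymmetric dimethylation of arginine 3 on histone H4. The peaks came from HCT116, an established human colorectal carcinoma cell line, which was not drug treated. One chromatin library immunoprecipitated with an H4R3me2a antibody was set by the authors against 1 input DNA library of the same cells, and no genetic change or agent was named for either. Chromatin was cross-linked with formaldehyde and sheared by sonication before the immunoprecipitation. With 1 library in each group there were no replicates, so no difference below has a replicate check and no test across samples was possible. A peak was counted for a gene when its summit, the position of its highest signal, lay in the gene body, or no more than 1 kb from a transcription start site (TSS) that GENCODE release 44 lists for that gene. This rule gave 69 of the 33349 peaks on chromosomes 1 to 22 and X, or 0.207%, and no summit belonged to more than 1 plakin gene. The genes were chosen by the number of summits in PLEC, together with its relatives, so that number is a description and was not tested.

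Plakins are giant cytolinkers, proteins that tie intermediate filaments, microtubules and actin to one another and to junctions of the cell membrane. PLEC encodes plectin, which joins keratin filaments to hemidesmosomes and other anchoring sites. Its gene has many alternative first exons, and the N-terminal ends that they encode direct plectin isoforms to different places in the cell. DSP encodes desmoplakin, the link between desmosomes and keratin, and EVPL and PPL encode envoplakin and periplakin, which take part in building the cornified envelope of stratified epithelia. EPPK1 encodes epiplakin, which is made almost wholly of plakin repeats. DST (dystonin) and MACF1 are spectraplakins, which also carry a spectrin-like rod and bind microtubules. H4R3me2a is laid down mainly by the arginine methyltransferase PRMT1 and has been linked with active transcription.

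To show the kind of sequence that carried a peak, 1 peak from each of 5 plakin genes is given below as the plus strand of GRCh38, 5′ to 3′, with the letters of CpG dinucleotides in capitals. Each is the peak of highest fold in its gene among those no wider than 300 bp that overlapped no untranslated region. The DSP peak (chr6:7545687-7545877), the PPL peak (chr16:4914109-4914249), the DST peak (chr6:56590850-56590978) and the MACF1 peak (chr1:39106167-39106366) have their summits in introns. The EVPL peak (chr17:76014519-76014714) has its summit in a coding exon.
DSP: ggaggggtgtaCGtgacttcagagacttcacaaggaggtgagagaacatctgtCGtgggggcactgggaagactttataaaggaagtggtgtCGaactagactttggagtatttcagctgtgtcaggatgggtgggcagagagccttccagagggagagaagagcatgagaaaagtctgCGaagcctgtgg
EVPL: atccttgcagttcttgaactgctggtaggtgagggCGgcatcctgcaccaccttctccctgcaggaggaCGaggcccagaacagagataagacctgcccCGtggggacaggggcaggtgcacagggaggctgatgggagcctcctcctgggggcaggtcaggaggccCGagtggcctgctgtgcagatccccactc
PPL: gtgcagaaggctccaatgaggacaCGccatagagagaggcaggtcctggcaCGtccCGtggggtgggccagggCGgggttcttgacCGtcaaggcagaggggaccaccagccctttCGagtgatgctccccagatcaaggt
DST: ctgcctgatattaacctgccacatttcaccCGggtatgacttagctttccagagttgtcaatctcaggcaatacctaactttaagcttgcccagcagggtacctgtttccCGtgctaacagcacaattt
MACF1: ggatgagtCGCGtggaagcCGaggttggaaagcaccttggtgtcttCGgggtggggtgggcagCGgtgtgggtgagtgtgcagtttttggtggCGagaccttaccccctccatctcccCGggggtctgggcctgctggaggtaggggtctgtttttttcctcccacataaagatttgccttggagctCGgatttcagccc

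These 5 sequences ranged in GC content from 46.5% in DST and 51.8% in DSP to 59.5% in MACF1, 63.1% in PPL and 64.3% in EVPL. CpG dinucleotides numbered 2 in the 129 bp of DST, 4 in DSP, 4 in EVPL, 6 in PPL and 8 in the 200 bp of MACF1. The DST sequence is thus the poorest in both, and it also had the lowest pileup of the 69 peaks, 5 fragments.

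Every plakin gene held at least 1 summit, where 47.2% of 19970 protein-coding genes of any length did. All 7 span more than 20 kb with their TSS windows, and 48.1% of the 11863 protein-coding genes of at least 20 kb had none. The 69 summits were very unevenly spread. PLEC held 39 of them (56.5%), PPL 9, EVPL 8, EPPK1 7, MACF1 3, DST 2 and DSP 1. Per length of gene body and TSS windows, PLEC had 6.23 summits per 10 kb (95% exact Poisson interval 4.43 to 8.52), EVPL 3.36 (1.45 to 6.62) and EPPK1 3.16 (1.27 to 6.51). PPL had 1.14 per 10 kb (0.519 to 2.16) and DSP 0.216 (0.00546 to 1.2). The spectraplakins came last, with 0.0737 per 10 kb (0.0152 to 0.215) for MACF1 and 0.0402 (0.00487 to 0.145) for DST. The intervals cover counting error alone. Neighbours in this order had overlapping intervals, and the place of PLEC in it is a description, since PLEC was chosen for its summits.

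Base composition differed widely between the genes, and all but EPPK1 stood in the same order by it as by density, with DSP and MACF1 alike. The mean GC content around the positions of each gene was 63.8% in PLEC, 67.5% in EPPK1, 59.5% in EVPL, 53.4% in PPL, 42.6% in both MACF1 and DSP, and 38.1% in DST. An expected number was computed for each gene by giving every position the summit rate that the whole genome had at its GC content, measured over 200 bp to each side. PLEC held 39 summits where GC content gave 13.1, a ratio of 2.99, which describes the count that it was chosen for and is no test. The ratio was 2.18 in EVPL (0.939 to 4.29), 1.77 in PPL (0.81 to 3.36) and 1.40 in EPPK1 (0.563 to 2.89). DSP had 1 summit where 0.68 was expected. MACF1 and DST were close to expectation, with ratios of 0.961 (0.198 to 2.81) and 0.915 (0.111 to 3.30). PLEC was 155 times as dense in summits as DST, and GC content alone gave a 47.5-fold difference. Without PLEC, the other 6 genes held 30 summits where 19.7 were expected. The 100 kb upstream and downstream of EVPL stood at 4.27 and 2.77, both above the gene, so its ratio cannot be called particular to it. For PPL these flanks stood at 0.789 and 3.75, below and above the gene. The ratio of PLEC depended on counting close summits apart: it was 1.63 when peaks under 1 kb from each other were merged. It also depended on the fold, and was 1.96 among peaks with a fold of 4 or more.

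**Figure D1:**
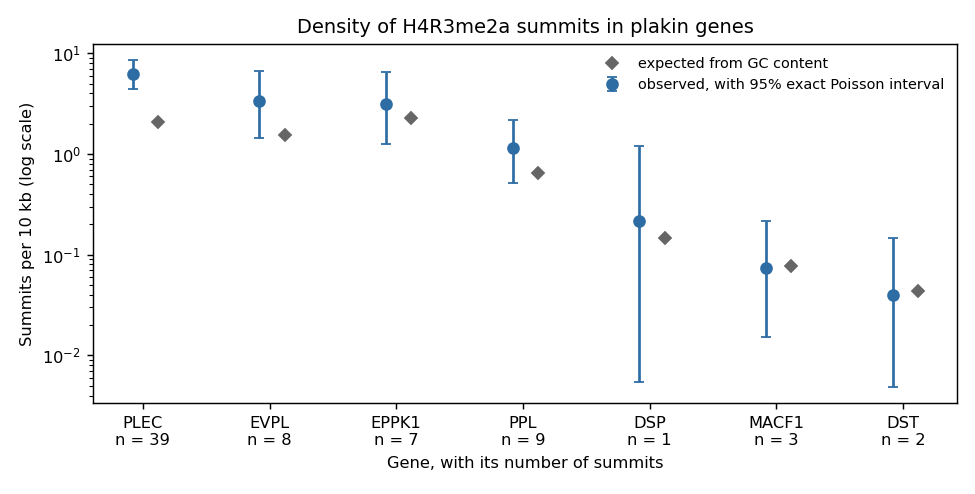
Summits per 10 kb of gene body and TSS windows (vertical axis, log scale) for the 7 plakin genes (horizontal axis, with the number of summits). Circles are the observed densities with 95% exact Poisson intervals and diamonds the densities expected from GC content. PLEC stands at 6.23 against 2.09 and was chosen for its number of summits, and DST stands lowest at 0.0402.

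PLEC is among the genes densest in H4R3me2a peaks. Of 11863 protein-coding genes whose body and TSS windows span at least 20 kb, PLEC ranked 5 by summits per 10 kb, while 48.1% of those genes had none and their median was 0.038. In number of summits, 7 protein-coding genes of any length had 39 or more, PLEC included. The 3 genes next above it in density were BAHCC1 (6.26 per 10 kb), ITGB4 (6.89) and MYO15B (6.99), on chromosome 17. The 3 next below were CPNE7 (6.23) and TRAF7 (5.97) on chromosome 16 and BOP1 (5.92) on chromosome 8. This likeness is of density in 1 peak list and says nothing of shared function. Against GC content PLEC stood less far out: of 670 genes with at least 5 expected summits, 14 had a ratio as high as that of PLEC or higher, PLEC included.

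The surroundings of PLEC on chromosome 8 were also rich in peaks. The 100 kb upstream of its window held 26 summits, 2.6 per 10 kb (1.70 to 3.81), and the 100 kb downstream, which include EPPK1, held 37, or 3.7 per 10 kb (2.61 to 5.10). Relative to GC content these flanks stood at 2.61 and 2.59, beside the 2.99 of PLEC. Among the other protein-coding genes within 100 kb, SCRIB had 14 summits (5.34 per 10 kb), PARP10 12 (3.28), OPLAH 7 (5.11), PUF60, NRBP2 and SPATC1 6 each (3.90, 7.15 and 1.67) and GRINA 2 (4.59). Their ratios to GC content ran from 2.19 in OPLAH to 3.89 in NRBP2, a range that holds the 2.99 of PLEC. EPPK1 was lower at 1.40, but its interval (0.563 to 2.89) overlaps that range and its expectation counts the repeated stretch named above. With the summit rate of chromosome 8 alone as the base, the ratio of PLEC was 2.26. Copy number was not measured and entered none of these ratios.

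Peaks in PLEC, EPPK1 and EVPL had, on median, more fragments over a higher background than those in the other 4 genes. Pileup is the number of fragments over the summit, and the background is the number that the caller's local model gave there, recovered as (pileup + 1) / fold − 1. In PLEC the pileups ran from 9 to 20 fragments with a median of 14 (interval of the median 13 to 16), over backgrounds of 1.74 to 5.63 (median 3.05). EPPK1 had pileups of 13, 14, 17, 17, 19, 19 and 20 over a median background of 3.69. In EVPL they were 12, 13, 14, 17, 18, 18, 19 and 19 over a median of 3.59. PPL was lower, with pileups of 8 to 13 over a median background of 1.54, the median background of all peaks. The single DSP peak had 7 fragments over 0.972, MACF1 had 7, 8 and 10 over a median of 1.09, and DST had 5 and 8 over 0.697 and 1.024. The ranges of PLEC, EPPK1 and EVPL overlapped, and those of DSP, DST and MACF1 lay below the median of all peaks, 10 fragments, or at it.

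The fold, which divides by the background, did not show these differences. The median fold was 3.93 in PLEC, 4.03 in EPPK1, 3.48 in EVPL, 3.65 in PPL and 4.34 in MACF1, and it was 4.18 over all peaks. Where the background was under 0.8 fragments the lowest pileup of any listed peak was 5, which the intronic DST peak matched. Between 3 and 3.5, where 11 of the PLEC peaks lie, it was 11, above every pileup in DSP, DST and MACF1. The median background of all 1402 peaks on chromosome 8 was 2.07, against 1.04 on chromosome 6, where DSP and DST lie. Whether copy number has a part in these backgrounds was not tested, and neither fold nor pileup ranks the strength of the mark between the genes.

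**Figure D2:**
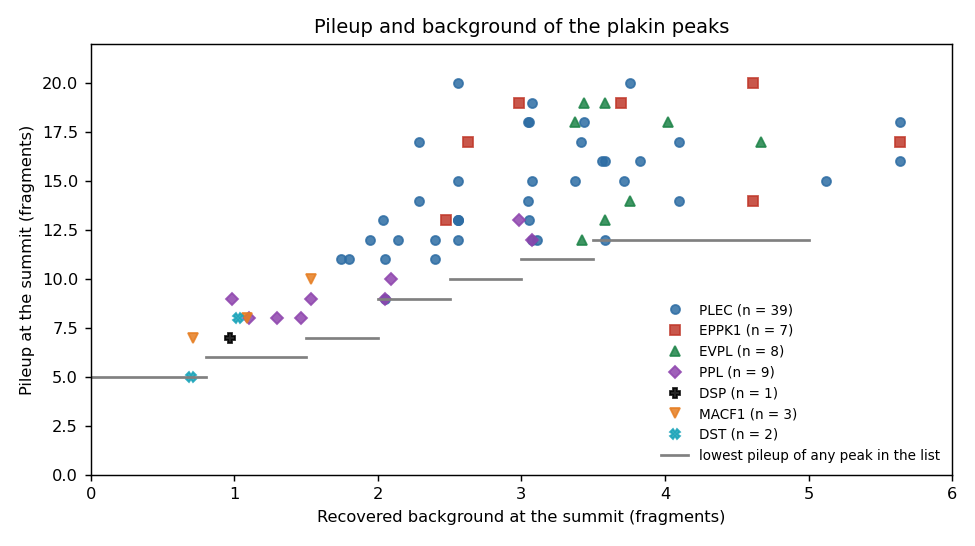
Pileup at the summit (vertical axis, fragments) against the recovered background there (horizontal axis, fragments) for the 69 plakin peaks, 1 symbol for each peak and 1 kind for each gene. Grey lines give the lowest pileup of any peak in the list by range of background; the peaks of DSP, DST and MACF1 lie at low background, and those of PLEC, EPPK1 and EVPL between 9 and 20 fragments.

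PLEC lies on the minus strand of chromosome 8 (143915153 to 143976734, ENSG00000178209.17), spans 61.6 kb and has 15 annotated transcripts with 14 TSSs. Its peaks cover 10925 bp, or 17.5% of the gene and its windows. Summits followed each other at a median distance of 1146 bp (quartiles 603 and 1734), with the shortest gap 299 bp and the longest 7355 bp. Of the 38 gaps, 16 were under 1 kb. The longest gap ran through the intron behind the 5′-most cluster of first exons, from 10283 to 17638 bp along the gene.

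The canonical transcript of PLEC, PLEC-202, begins 37137 bp into the gene, and the sequence before it holds the other first exons. This alternative first exon part, 38.1 kb with its window, held 25 summits, 6.56 per 10 kb (4.24 to 9.68). The part from the canonical TSS to the 3′ end, 24.4 kb, held 14, or 5.73 per 10 kb (3.13 to 9.61). The densities did not differ beyond their intervals. Against GC content the alternative first exon part stood at 3.70 (2.40 to 5.47) and the canonical part at 2.22 (1.21 to 3.73), again with overlapping intervals. Peaks in the first part had a median pileup of 13 over a background of 2.56, and those in the canonical part 16 over 3.5.

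**Figure D3:**
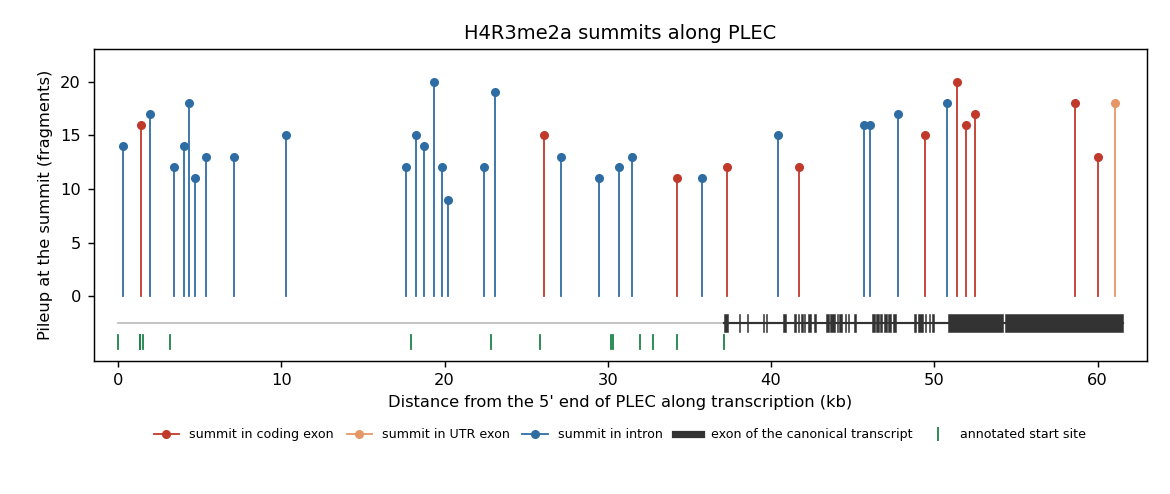
The 39 summits along PLEC, with distance from the 5′ end along transcription (horizontal axis, kb) and pileup at the summit (vertical axis, fragments), coloured by the position of the summit. Dark boxes are exons of the canonical transcript and green ticks annotated start sites; 25 summits lie before the canonical start at 37137 bp and 14 after it.

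Most TSSs of PLEC had a summit near them, in a gene whose summits lay a median of 1146 bp apart. A summit within 1 kb is therefore frequent along much of PLEC, but not in its longer gaps, which reach 7355 bp. The share of other positions with one was not computed, so no preference for first exons can be read from the counts. Of the 14 TSSs, 13 had a summit within 1 kb, made up of 10 different nearest summits that lay between −524 bp (upstream) and 500 bp (downstream) of the TSS. The exception was PLEC-203, whose nearest summit lay at −1303 bp. In 10 of the 13 the nearest summit was downstream of the TSS. At the 5′-most TSS, that of PLEC-208 and PLEC-210, the summit lay 281 bp downstream (14 fragments, fold 4.56, GC content 76.1%). It lay 8 bp downstream of PLEC-209, inside its coding first exon (16 fragments), 220 bp downstream of PLEC-205 (12 fragments) and 303 bp downstream of PLEC-204 (19 fragments). For PLEC-201 and PLEC-206 the summits fell in the first exon itself, at 260 and 18 bp, with 15 and 11 fragments. The canonical TSS had its summit 179 bp downstream, in exon 1 at codon 15, with 12 fragments and a fold of 3.19. The peak at −524 bp from PLEC-207 also covers the microRNA gene MIR661, so it cannot be assigned to 1 of these genes. The canonical first-exon peak was among the smaller ones of the gene, and the canonical start is therefore not where the PLEC signal was highest.

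Start sites are so frequent in PLEC that nearness to one carries little information. The TSS windows make up 30.7% of the sequence and held 16 of the 39 summits, 41.0% (25.6 to 57.9%), and GC content alone placed 33.8% there. Outside them lay 23 summits, 5.31 per 10 kb (3.36 to 7.96), against 8.32 (4.75 to 13.5) inside. With the canonical transcript alone, 1 of 14 summits (7.14%) was within 1 kb of the TSS, and with windows of 3 kb the share was 64.3%. Across the family 6 of 7 genes had a summit within 1 kb of a TSS, where 31.6% of protein-coding genes did, and DSP had none. The comparison is not adjusted for the number of TSSs, which was 14 in PLEC, 39 in DST and 53 in MACF1. At the canonical TSS only PLEC, EPPK1 and PPL had a summit within 1 kb.

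The peaks of PLEC with the highest values lay in introns and in the large exons. The highest fold, 5.90, and a pileup of 20 belonged to an intronic peak 1434 bp downstream of the PLEC-213 TSS (143957273 to 143957509). The other peak with 20 fragments, of fold 4.41, had its summit in exon 31. The widest peak, 757 bp with 17 fragments and a fold of 5.48, lay 436 bp downstream of PLEC-212, a retained-intron transcript (143974138 to 143974894). The lowest pileup, 9 fragments, was that of an intronic peak 2294 bp downstream of PLEC-213. The caller's −log10 q reached 5 in 3 PLEC peaks and 1 EPPK1 peak, 4 of 69 in the family (5.80%, 1.6 to 14.2%), against 3.84% of all peaks.

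Exons of PLEC held 12 of its 39 summits, 30.8% (17 to 47.6%), with 11 in coding sequence and 1 in the 3′ UTR. Exons are 27.2% of the sequence, and GC content placed 33.3% of summits there, so the exonic share was that of the sequence within its interval. First exons held 4 of the 12. In the canonical transcript alone, 9 of 14 summits (64.3%, 35.1 to 87.2%) were exonic. Exons take a larger share of that transcript's span than of the whole gene. That share was not computed, so the 64.3% shows no preference for exons. Exon 31 of 32, the 3381 bp exon that encodes the coiled-coil rod of plectin, had 3 summits at residues 1536, 1714 and 1896 of the 4547 in PLEC-202, with 20, 16 and 17 fragments. Exon 32, the last and largest with 7243 bp, encodes the C-terminal plakin repeats and had 3 summits. A pair of these lay at residues 3905 and 4366, with 18 and 13 fragments, and the remaining one in the 3′ UTR with 18. GC content gave 0.806 and 1.91 summits for these exons, and the Poisson interval of 3 summits (0.619 to 8.77) holds both. The remaining coding summits of the canonical part were at residue 261 in exon 8 and residue 1256 in exon 28.

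EPPK1 lies 36.7 kb from PLEC on the same strand (143857324 to 143878467, ENSG00000261150.3). Its 7 summits, all within the first 5928 bp, included 1 at 298 bp downstream of the canonical TSS (13 fragments, fold 4.03) and the widest at 509 bp with the highest fold, 5.02 (19 fragments). Its second TSS, at 5201 bp, had its nearest summit at −260 bp (19 fragments, fold 4.26). The single intron held 6 and the coding exon 1, with 20 fragments, at residue 239 of 5088. The coding exon, 15975 bp long, held this 1 summit where GC content gave 3.57, and the Poisson interval of that 1 reaches 5.57. Exons are 72.3% of the gene and its windows but held 14.3% of summits (0.361 to 57.9%).

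Sequence found more than once in the genome was unevenly spread along EPPK1. From 12 to 20 kb along the gene, 95.9% of 32-base stretches occurred more than once in chromosomes 1 to 22, X and Y. Between the last summit and 12 kb the share was 8.30%. Both stretches lie past the last summit and so hold none by their definition. The sources used here do not say how reads that match several places were treated, and the part of repeated sequence in the position of the summits was not tested. Over the whole gene 40.6% of 32-base stretches were repeated in EPPK1, against 5.52% in PLEC. Within 100 bp of the summit, 66 of the 69 plakin peaks had no repeated stretch, and none was mostly repeated.

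**Figure D4:**
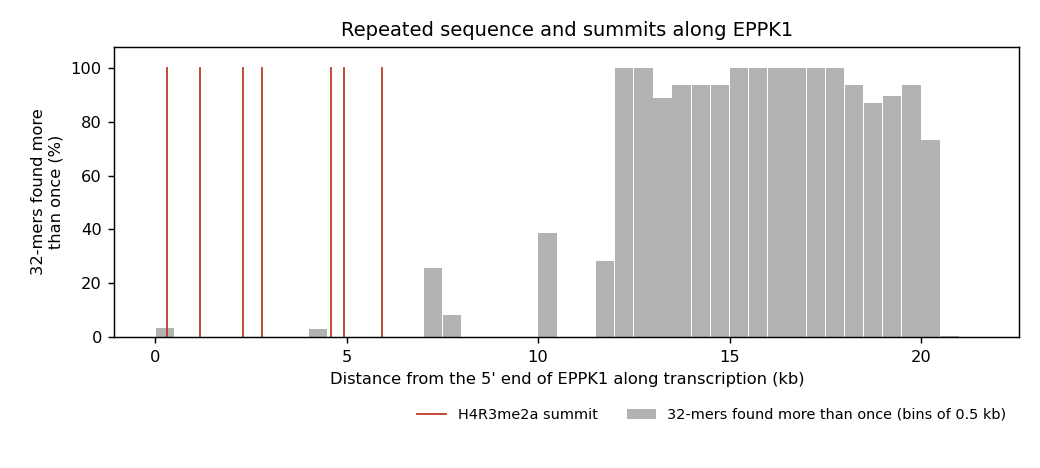
Share of 32-base stretches found more than once in the genome (vertical axis, percent, bars of 0.5 kb) by distance from the 5′ end of EPPK1 along transcription (horizontal axis, kb), with the 7 summits as red lines. The summits end at 5928 bp, and nearly all stretches from 12 to 20 kb were repeated, as were 73.4% in the bar at 20 kb. Between the summits and 12 kb single bars reach 38.8%.

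EVPL differed from PLEC and EPPK1 in having no summit near the start of the gene. It lies on the minus strand of chromosome 17 (76004502 to 76027306, ENSG00000167880.8), and its first summit was 9403 bp from the 5′ end. The nearest peak upstream of the gene lay at −6834 bp from the canonical TSS. Of the 8 EVPL summits 6 were exonic, 75% (34.9 to 96.8%), where exons are 30.9% of the sequence and GC content placed 46.0%. Of these, 3 lay in the last exon of the canonical transcript (exon 22, 3699 bp). They were at residues 1192, 1419 and 1696 of 2033, with 17, 18 and 19 fragments. GC content gave 0.868 there, which lies within the Poisson interval of the 3 summits (0.619 to 8.77). The widest EVPL peak, 562 bp with a fold of 4.36, is the one at residue 1696. Others were at residue 516 in exon 14 (18 fragments) and residue 751 in exon 18 (19 fragments, fold 4.51), the sequence of which is printed above. The summit nearest the 3′ end lay in the UTR of a short transcript, EVPL-204, that overlaps CDK3, so it cannot be assigned to 1 of these genes.

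PPL, on the minus strand of chromosome 16 (4882507 to 4960741, ENSG00000118898.16), had 9 summits spread over the gene at 8 to 13 fragments. The canonical TSS had 1 at 243 bp downstream (9 fragments, fold 3.94), which is also 159 bp downstream of PPL-205, and the 5′-most TSS, that of PPL-206, had none within 1 kb. Coding exons held 3 summits, 33.3% (7.49 to 70.1%), where exons are 9.72% of the sequence and GC content placed 22.2%. A pair of these was in the last exon (exon 22, 3541 bp) at residues 978 and 1524 of 1756, with 8 and 9 fragments. GC content gave 0.49 there, which lies within the Poisson interval of that pair (0.242 to 7.22). The peak at residue 1524 was the widest of the gene at 639 bp, with a fold of 3.28. The highest pileup, 13 fragments, was in intron 10 and the highest fold, 5.04, in the first intron of the canonical transcript.

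DSP, on the plus strand of chromosome 6 (7541338 to 7586714, ENSG00000096696.16), had 1 peak, in its first intron 4155 bp downstream of the canonical TSS, with 7 fragments, a fold of 4.06 and a GC content of 50.4%. None of its 7 TSSs had a summit within 1 kb. GC content gave 0.68 summits for the gene, so at this depth a lack of peaks at its start cannot be told from a number too small to observe. The last exon of DSP (exon 24, 4073 bp) had 0 summits where 0.0468 was expected. Its GC content sets it apart from the corresponding exons of PLEC, EVPL and PPL, for which at least 0.49 was expected.

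In the long spectraplakin genes 4 of 5 summits lay within 1 kb of an alternative TSS, and 2 of these in a first exon. MACF1, on the plus strand of chromosome 1 (39081316 to 39487177, ENSG00000127603.32), has 53 TSSs over 406 kb, and its 3 summits lay near 8 of them. The first was 148 bp downstream of MACF1-204 and in coding sequence of a first exon (8 fragments, fold 4.31), and the second 793 bp downstream of MACF1-226 (7 fragments, fold 4.67). The third lay 328109 bp into the gene, at −78 bp from the TSS of a protein-coding transcript (10 fragments, fold 4.34, 415 bp wide), in sequence of 73.6% GC. The canonical TSS of MACF1 had none within 1 kb. DST, on the minus strand of chromosome 6 (56457987 to 56954830, ENSG00000151914.22), has 39 TSSs over 497 kb. One of its summits lay 111461 bp from the 5′ end, in the untranslated first exon shared by DST-206 and DST-207 (8 fragments, fold 4.45, 72.3% GC). Its other peak, in an intron, is the one of 5 fragments. The TSS windows of these genes took 48.2% (MACF1) and 35.3% (DST) of the summits that GC content gave, and 5 peaks are too few to set their position against it.

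**Figure D5:**
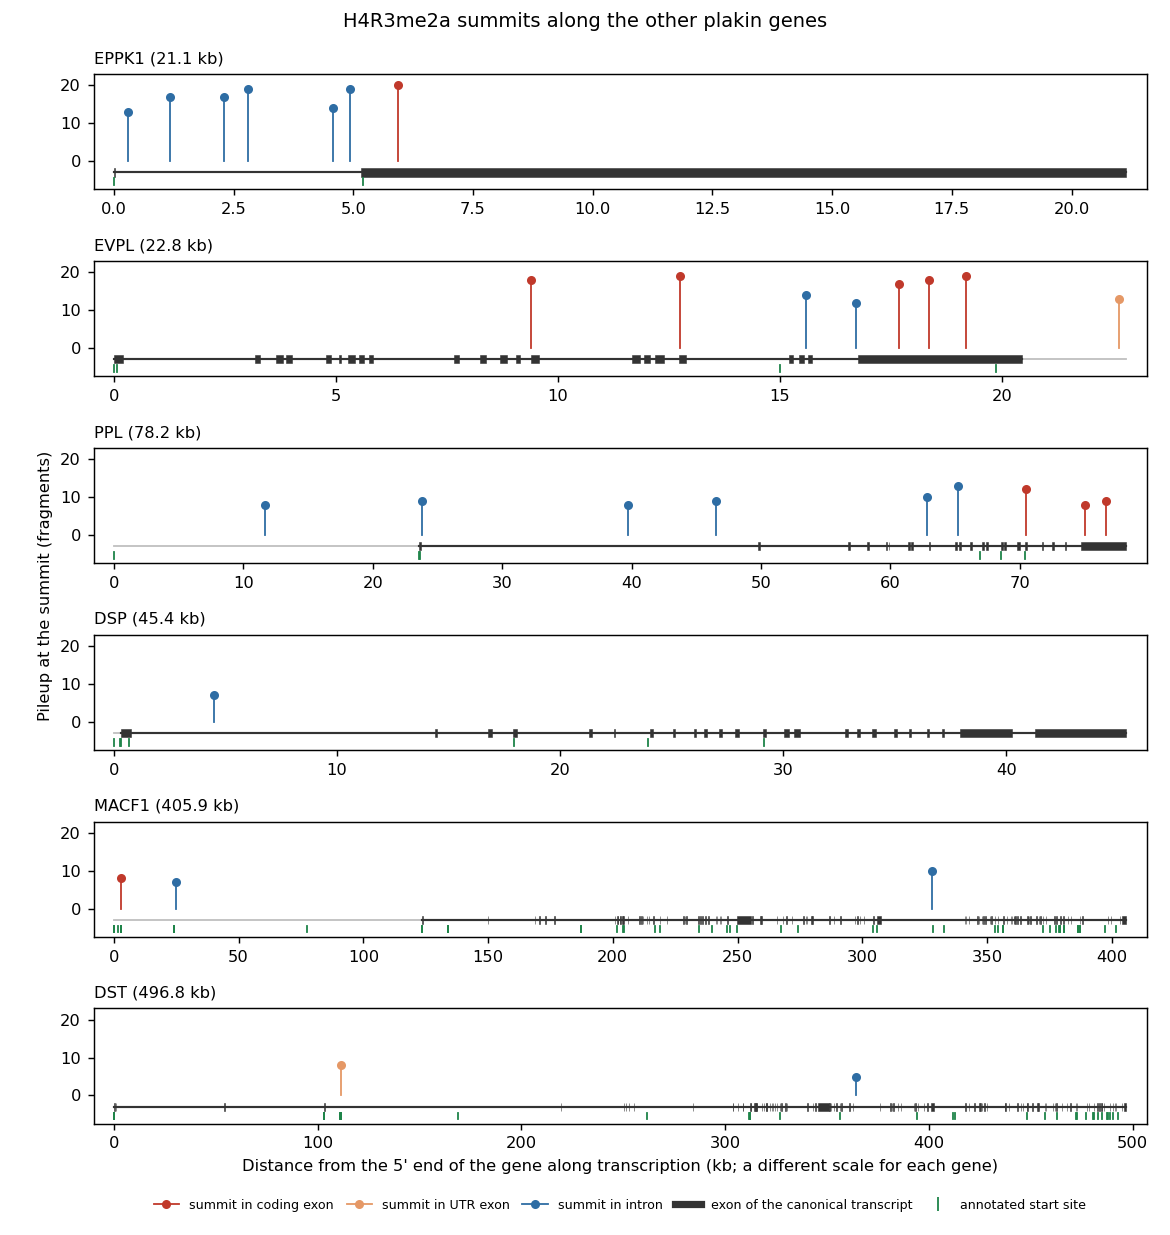
Summits along the other 6 plakin genes, with distance from the 5′ end along transcription (horizontal axis, kb, a different scale in each panel) and pileup (vertical axis, fragments), coloured by position. Dark boxes are exons of the canonical transcript and green ticks annotated start sites; EPPK1 summits lie in the first 5928 bp, EVPL summits from 9403 bp onwards, and MACF1 and DST have 3 and 2.

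As a family the plakin summits lay in 45 introns, 21 coding exons and 3 UTR exons, and 28 of 69 were within 1 kb of a TSS of their gene. Their median GC content was 65.6%, against 59.6% for the peaks outside these genes, and ranged from 47.9% to 76.1%, with 2 summits under 50%. Their median CpG observed to expected ratio was 0.370 against 0.298. Median widths were alike between the genes with 7 or more peaks, at 212 bp in PLEC (156 to 338), 211 in EPPK1, 214 in EVPL and 203 in PPL, and 185 over all peaks. A width of 500 bp or more was reached by 7 of the 69 (10.1%, 4.18 to 19.8%), 4 of them in PLEC, against 3.53% of all peaks.

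The edges of the rule touched few peaks. The nearest summit outside lay upstream of PLEC, 297 bp beyond the window (22 fragments, fold 2.37), where the nearest one inside was 281 bp downstream of the 5′-most TSS (14 fragments, fold 4.56). Upstream of EPPK1 the nearest summit outside was 302 bp beyond the window (12 fragments, fold 4.02). A window of 3 kb raised the family from 69 to 75 summits, and one of 500 bp left the count at 69.

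Among the listed partner genes of plakins, that of integrin beta 4 had the most peaks. ITGB4, the hemidesmosome subunit to which plectin binds directly, held 26 summits in 37712 bp, with 15 of them within 1 kb of a TSS. This was 6.89 per 10 kb and 5.34 times the number from GC content. MYO15B, which is on none of the lists, stood alike at 6.99 and 5.01. MYO15B ends at 75626849 on chromosome 17, and ITGB4 begins at 75721328. The surroundings of ITGB4 were not measured, so its density cannot be called particular to a partner of plectin. Of 7 genes of the hemidesmosome and its laminin 6 had a summit, against 47.2% of protein-coding genes, and 4 had one near a TSS, against 31.6%. They included COL17A1, which encodes a transmembrane collagen, with 5. Of 14 desmosome genes 8 had a summit and 5 one near a TSS, led by JUP (plakoglobin, 6), PKP1 (plakophilin 1, 5) and PKP3 (3). Of 19 genes for microtubule and actin partners of spectraplakins or their relatives 15 had a summit and 11 one near a TSS, led by the actinin gene ACTN4 (14), the spectrin gene SPTBN4 (11) and ACTN1 (9). Of 22 intermediate filament genes 8 had a summit, 7 near a TSS, with LMNA (lamin A, 8), KRT8 (keratin 8, 7) and LMNB2 (5) highest, and of 12 cornified envelope genes 3 did, namely TGM1 and TGM3 with 2 each and TGM5 with 1. These counts were not adjusted for gene length, whose median ran from 3.89 kb in the cornified envelope list to 106 kb in the spectraplakin partners, and they are no test of the lists.

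The label of the cells could be checked only loosely, since a peak of 1 mark is no measure of expression. Of 10 marker genes of intestinal epithelium 7 had a summit, among them KRT8 (7), VIL1 (3) and CDH1 (2), while CDX2, KRT18 and KRT20 had none. None of 8 epidermal markers had one, KRT5 and KRT14 included, nor did DES, the muscle partner of plectin. Of 5 striated muscle markers 2 had a summit and of 4 blood markers 1 did, against 47.2% of all protein-coding genes. The marker counts were not adjusted for gene length or GC content. Median length was 15.5 kb in the intestinal list and 6.14 kb in the epidermal one, so their counts cannot be set against each other.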

How the data were processed

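Per the labels, 1 H4R3me2a library and 1 input library of untreated HCT116 cells were sequenced as paired-end reads of 150 bp. Bowtie2, MACS2, deepTools and GRCh38 are named in the submitters' processing notes, while versions, parameters, read filters and library depths were not given in the sources used here. In the deposited peak table the authors give the width in bp, the pileup at the summit as a signal in whole numbers, read here as fragments, the fold as a ratio of pileup to local background by the authors' caller, and −log10 p and q. The background recovered from pileup and fold assumes that 1 was added to both sides of the ratio, as is usual for this caller and is not stated in the labels. These are each peak's own values and served only for description within the list.

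Summits were placed on GENCODE release 44 and its GRCh38 sequence, whose chromosome lengths contain every peak, with Python 3.11.15, numpy, pandas and scipy. The GC expectation used bins of 2%, and was tested on simulated data. Densities have exact Poisson intervals, shares exact Clopper-Pearson intervals and medians binomial-rank intervals, at 95%. They cover counting error, and reads without molecular identifiers are not independent molecules. The members and lists were chosen with earlier results of these data known. All 7 genes were named whatever their values. For each gene the highest pileup, fold and width and the peaks nearest to first exons were named. The 3 genes next above and below PLEC in density, its neighbours within 100 kb and up to 3 genes of each partner list with the most summits were also named, except 1 gene that is not reported here. The stretches of EPPK1, the large exons, the repeated 32-base stretches and the printed sequences were chosen after values were seen. The partner lists cover intermediate filaments, desmosome, hemidesmosome, spectraplakin partners and cornified envelope, and the marker lists intestinal epithelium, epidermis, striated muscle and blood. Markers beyond this rule were named after their values were seen. Alternatives were stricter q and fold, merged peaks, other TSS windows, canonical transcripts, peak overlap, other GC windows and the chromosome 8 rate, and the closing section gives their values.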

Additional observations from a re-analysis of the deposited data

How the results depend on the processing

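The number of plakin summits fell from 69 to 4 when −log10 q had to reach 5, 29 with a fold of 4 or more, 37 in the upper 50% by −log10 q, 37 after merging peaks under 1 kb apart, and 40 with canonical transcripts alone. PLEC summits per 10 kb were 0.479, 2.40, 3.99 and 2.56 under the first 4 of these. The ratio of PLEC to GC content fell to 1.96 with a fold of 4 or more and 1.63 after merging, and ran from 2.13 to 3.58 under the other alternatives, GC windows of 100 and 500 bp and the chromosome 8 rate included. The exonic share was 0% of 3 peaks at that q and 64.3% with the canonical transcript, whose span is richer in exons. The share near a TSS was 66.7%, 64.3% and 7.14% with that q, a 3 kb window and the canonical transcript. Median width was 342 bp with that q and 764 bp after merging, and median pileup 19 with that q and 17 with a fold of 4 or more. The strict sets select on fold or q, and merging and canonical transcripts reduce what is counted, by construction. The other values stayed within their intervals or within 1.5 times the count. No paired analysis was possible because each group has 1 library, and no replicate could be left out. DSP, DST and MACF1 rest on 1 to 3 peaks each, and library depth is unknown.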
